A study of Arabidopsis thaliana with 12 samples.

Results

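The cell cycle genes described here are the cyclins, the cyclin-dependent kinases (CDKs) and the DNA replication, mitosis and CDK inhibitor genes of Arabidopsis thaliana roots. They are 52 genes, chosen by locus identifier out of the 33602 genes tested, and all 52 were found in the genome annotation. By role they are 8 B-type, 7 A-type and 9 D-type cyclins, 5 CDKA and CDKB kinases, 9 replication genes, 2 E2F factors, 7 genes of mitosis and cytokinesis, and 5 CDK inhibitors. Roots of Col-0 seedlings, 6 days after germination on 1/2 MS plates, gave 12 RNA samples depleted of ribosomal RNA. They form 4 groups of 3 replicates, which the design text calls biological: trm4b-1 on 0.01 uM paraquat, trm4b-1 without paraquat (control), WT on 0.01 uM paraquat, and WT without paraquat (control). Paraquat is a herbicide that makes cells form superoxide, and TRM4B is an RNA methyltransferase that makes 5-methylcytosine. The labels give 1 mutant allele and do not say what kind of mutation it is.

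The values are the authors' deposited tables of 5 comparisons, fitted with limma per the submitters' processing notes. Genes enter a deposited table below an adjusted p of 0.1, and no table holds a value for a single sample, so sample values, levels and depth cannot be shown, and the root label could not be checked against levels of root genes. Below, a gene rose, fell or changed where its adjusted p was under 0.05. A listed gene above that threshold is given by its values alone. The headers do not state the base of the fold changes, which are read here as log2, as limma writes them. Each ± is a standard error worked back from a fold change and its p-value. In the authors' deposited tables TRM4B itself was higher in the libraries labelled trm4b-1 than in WT, by 2.89 ± 0.08 on control medium and by 3.90 ± 0.08 on paraquat (log2). Whether the transcript is whole cannot be read from such a value, and directions below are those of the libraries as labelled. Of the 52 genes, 29 were listed in at least 1 table, 22 changed in at least 1 comparison, and 23 were listed in none.

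CDKs drive the cell cycle when a cyclin binds them. D-type cyclins act at the entry into the cycle, where CDK activity releases E2F factors that switch on replication genes such as the MCM helicase subunits. A-type and B-type cyclins act later, up to mitosis, and the plant-specific CDKB kinases work with them. KRP and SIAMESE-related (SMR) proteins bind and inhibit cyclin-CDK complexes, and in roots dividing cells are found mainly in the meristem at the tip. Many genes of the G2-to-M step carry a mitosis-specific activator (MSA) element, with the core AACGG, which MYB3R transcription factors bind. Replication genes often carry E2F sites.

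The stretches below show both kinds of motif, for B-type cyclins that fell with paraquat and for replication genes that were listed in no comparison. Each is the 120 bases before the gene start in the RefSeq annotation of TAIR10.1, read 5′ to 3′ on the gene's strand. Capitals mark the MSA core (AACGG, or CCGTT on the other strand). CYCB1;1 is shown at chr4:17624309-17624428 (minus strand), CYCB1;2 at chr5:1861704-1861823 (minus strand), CYCB1;3 at chr3:3627274-3627393 (minus strand) and CYCB2;3 at chr1:7137829-7137948 (minus strand).
CYCB1;1: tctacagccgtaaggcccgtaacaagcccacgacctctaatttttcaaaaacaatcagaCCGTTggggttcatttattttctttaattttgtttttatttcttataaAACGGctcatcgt
CYCB1;2: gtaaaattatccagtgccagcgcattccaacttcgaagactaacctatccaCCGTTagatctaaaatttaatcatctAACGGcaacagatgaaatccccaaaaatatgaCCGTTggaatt
CYCB1;3: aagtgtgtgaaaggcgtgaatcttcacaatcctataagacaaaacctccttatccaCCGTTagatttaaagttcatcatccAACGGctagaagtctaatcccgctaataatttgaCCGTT
CYCB2;3: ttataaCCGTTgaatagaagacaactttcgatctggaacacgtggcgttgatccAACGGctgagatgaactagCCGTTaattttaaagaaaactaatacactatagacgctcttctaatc

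In the next set the capitals mark an E2F site, searched as TTTCCCGC, TTTGGCGC, TTTGCCGC or TTTCGCGC on both strands. The MCM genes code for subunits of the replicative helicase. MCM2 is shown at chr1:16970094-16970213 (plus strand), MCM4 at chr2:7130730-7130849 (minus strand), MCM5 at chr2:3527501-3527620 (minus strand) and MCM6 at chr5:18010668-18010787 (minus strand).
MCM2: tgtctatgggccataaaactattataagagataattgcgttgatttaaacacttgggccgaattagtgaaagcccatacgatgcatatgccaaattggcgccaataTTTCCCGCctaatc
MCM4: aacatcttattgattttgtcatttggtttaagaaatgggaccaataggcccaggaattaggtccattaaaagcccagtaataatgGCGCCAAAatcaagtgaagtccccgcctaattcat
MCM5: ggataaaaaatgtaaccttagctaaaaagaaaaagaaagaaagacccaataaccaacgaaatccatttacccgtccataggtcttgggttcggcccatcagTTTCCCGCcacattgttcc
MCM6: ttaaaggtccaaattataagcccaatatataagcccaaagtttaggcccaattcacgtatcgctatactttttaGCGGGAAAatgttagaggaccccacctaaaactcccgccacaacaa

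The motifs were spread unevenly over the roles of the genes. Between 250 bases before and 50 bases after the start, the MSA core occurred in 7 of 8 B-type cyclins, each with at least 2 matches, and in 5 of 7 genes of mitosis and cytokinesis. CYCB2;4 was the B-type cyclin with none in this window, and it fell with paraquat in trm4b-1. CYCB2;1 had matches 56, 85 and 137 bases before its start and was listed in no comparison. Over all 27443 nuclear protein-coding genes, 24.7% had a match and 4.89% had 2 or more. E2F sites occurred in 7 of the 52 genes and in 1.76% of all promoters. They were found in MCM2, MCM3, MCM4, MCM5 and MCM6, 5 of the 9 replication genes. Outside the replication genes, the CDK inhibitor gene SMR7 had an E2F site 148 bases before its start. The most MSA matches of any member, 7, were in the promoter of another CDK inhibitor gene, KRP1. No promoter of a member had overlapping matches, of the same or of different motifs, against 14 promoters in the genome. The 250 bases before the start alone held an MSA core in 6 of 8 B-type cyclins. For genes of mitosis and cytokinesis the count was then 4 of 7, and the share of all promoters was 20.6%. CYCB1;4 and CDC20.2 had matches only from the start onwards. The windows depend on the annotated start: for 17 of the 29 members with a deposited position the RefSeq start lay over 50 bases from the deposited one. It lay 395 bases upstream for CYCB2;4, 713 for CYCA2;1 and 1281, the most, for AUR2. The only MSA match of AUR2, 6 bases before its RefSeq start, is counted in the 5 of 7. A match is a run of letters in this window and says nothing of binding.

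**Figure D1:**
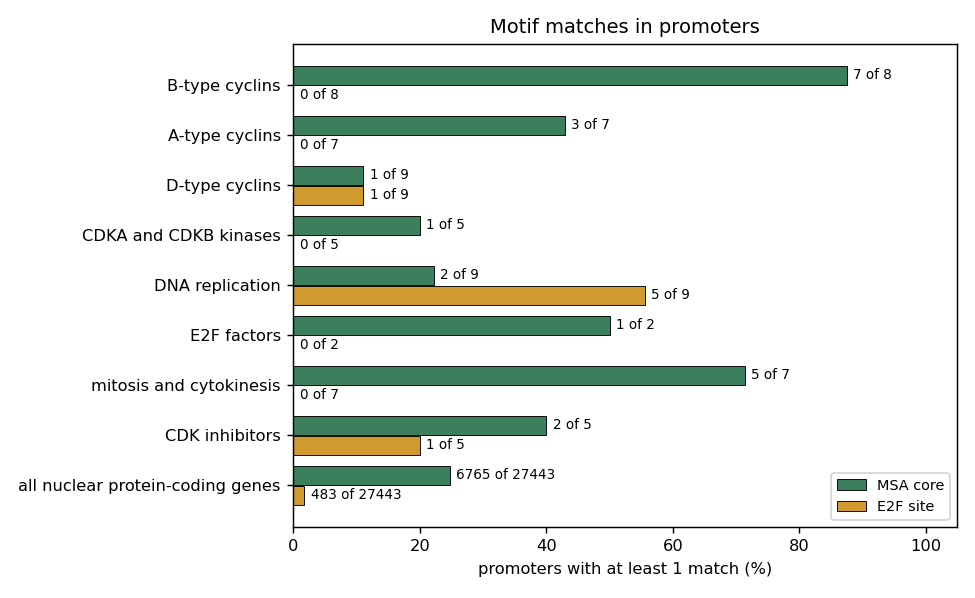
Share of promoters with at least 1 match (x axis, percent) for each role of the 52 genes and for all nuclear protein-coding genes (y axis), with the MSA core in green and E2F sites in ochre and the count beside each bar. The MSA core is most frequent in B-type cyclins (7 of 8) and E2F sites in the replication genes (5 of 9).

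The paraquat comparisons ask which genes respond to mild oxidative stress in each genotype. In the authors' deposited tables, paraquat lowered 15 of the 52 genes in trm4b-1 and 11 in WT. These are 28.8% and 21.2% of the 52 genes, against 4.33% of all tested genes lower in trm4b-1 and 9.01% lower in WT. The 33602 tested genes outnumber the 27443 nuclear protein-coding genes, and whether genes silent in roots were removed was not given. The share among expressed genes alone could be higher and was not computed. In either direction, 9.05% of all tested genes changed in trm4b-1 and 17% in WT. The genes that rose were 1 in trm4b-1 (1.92% of the 52, against 4.72% of all tested genes) and 4 in WT (7.69%, against 7.99%), so risers were no more frequent than among all genes. Another 4 genes in trm4b-1 and 6 in WT were listed without passing the threshold, in tables that list 12.2% of all tested genes for trm4b-1 and 21.6% for WT. The changes were moderate: absolute log2 fold changes of the genes that changed ran from 0.41 to 0.94 in trm4b-1 (median 0.55, 16 genes) and from 0.35 to 0.91 in WT (median 0.62, 15 genes). Over all changed genes the medians were 0.76 in trm4b-1 and 0.72 in WT. In whole roots, fewer dividing cells and less RNA per dividing cell cannot be told apart.

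**Figure D2:**
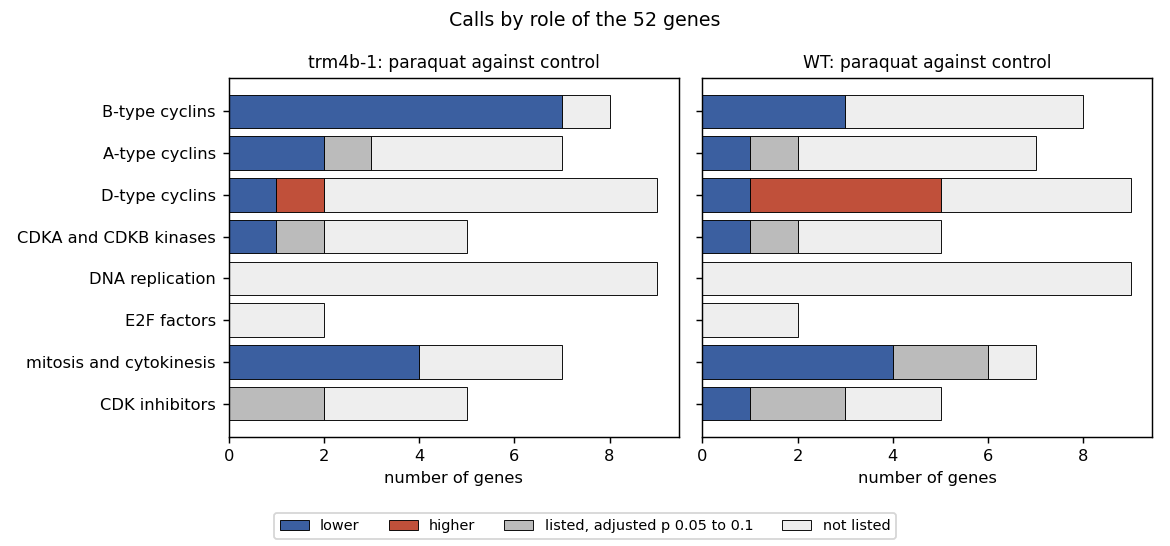
Number of genes (x axis) by role (y axis) that were lower, higher, listed without passing the threshold, or not listed with paraquat against control, in trm4b-1 (left) and WT (right). In trm4b-1, 7 of 8 B-type cyclins are lower, and in WT, 4 of 9 D-type cyclins are higher. No replication gene or E2F factor is listed in either panel.

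B-type cyclins, which bind CDKs at mitosis, were the role with the most falls in trm4b-1. There, 7 of 8 fell and in WT 3 of 8, and none rose. Lower among all tested genes were 4.33% in trm4b-1 and 9.01% in WT. CYCB1;1 (AT4G37490, TAIR10 chr4:17621886-17624285, minus strand), the B-type cyclin most used to mark cells at G2 and M, fell by 0.84 ± 0.18 in trm4b-1 in the authors' deposited table (adjusted p = 0.00774), a change of -44.2%. It was not listed in WT. The deposited log2 fold change of CYCB1;2 was -0.41 ± 0.12 in trm4b-1 (adjusted p = 0.0473) and -0.57 ± 0.12 in WT (adjusted p = 0.00337). For CYCB1;3 the deposited values were -0.58 ± 0.12 in trm4b-1 (adjusted p = 0.00655) and -0.71 ± 0.12 in WT (adjusted p = 0.000563). CYCB1;4 had a deposited -0.48 ± 0.11 in trm4b-1 (adjusted p = 0.00776) and -0.75 ± 0.10 in WT (adjusted p = 0.000115), the lowest adjusted p among the 52 genes in any paraquat comparison. These 3 members of the B1 subfamily fell in both genotypes. In the authors' deposited table for trm4b-1, CYCB2;2 fell by 0.67 ± 0.16 (adjusted p = 0.0112), CYCB2;3 by 0.77 ± 0.18 (adjusted p = 0.0125) and CYCB2;4 by 0.54 ± 0.13 (adjusted p = 0.0137), and none of these B2 cyclins was listed in WT. CYCB2;1 was listed in no table.

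Among the A-type cyclins, which act in S phase and on the way to mitosis, 2 of 7 fell in trm4b-1 and 1 of 7 fell in WT. The shares of all tested genes that fell were 4.33% and 9.01%, and the WT count is a single gene. The deposited log2 fold change of CYCA2;2 (AT5G11300) was -0.82 ± 0.16 in trm4b-1 (adjusted p = 0.00391) and -0.91 ± 0.16 in WT (adjusted p = 0.000883), the largest fall of any member that passed in WT. CYCA1;1 (AT1G44110) fell by 0.55 ± 0.15 in trm4b-1 in the deposited table (adjusted p = 0.0353) and was not listed in WT. CYCA2;1 was listed in the authors' deposited table for trm4b-1 with -0.98 ± 0.33 (adjusted p = 0.0827), and CYCA2;4 in WT with 0.38 ± 0.13 (adjusted p = 0.0629). The deposited tables listed the other members, CYCA2;3, CYCA3;1 and CYCA3;2, in no comparison.

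Of the 5 CDKs, 1 fell in each genotype, beside 4.33% of all tested genes in trm4b-1 and 9.01% in WT. CDKB2;1 (AT1G76540), a plant kinase of the G2-to-M step, was that kinase, with a deposited -0.53 ± 0.15 in trm4b-1 (adjusted p = 0.0367) and -0.72 ± 0.15 in WT (adjusted p = 0.00253). Its closest relative, CDKB2;2, was not listed in trm4b-1 and had -0.61 ± 0.21 in WT in the deposited table (adjusted p = 0.0624). CDKB1;1 was listed in the deposited trm4b-1 table at -0.42 ± 0.14 (adjusted p = 0.0913) and not in WT. The deposited tables listed neither CDKB1;2 nor CDKA;1, the kinase that acts through the whole cycle, in any comparison.

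D-type cyclins, which link growth signals to the entry into the cycle, split by subfamily. In trm4b-1, 1 of 9 rose and 1 fell, and in WT, 4 of 9 rose and 1 fell. Among all tested genes, 4.72% rose and 4.33% fell in trm4b-1, and 7.99% rose and 9.01% fell in WT. The gene that rose in both was CYCD3;1 (AT4G34160), with a deposited 0.46 ± 0.11 in trm4b-1 (adjusted p = 0.0118) and 0.62 ± 0.11 in WT (adjusted p = 0.000869), or 1.38-fold and 1.54-fold. The D3 cyclins respond to cytokinin and favour division over endoreduplication. Its relatives CYCD3;2 (0.43 ± 0.10, adjusted p = 0.00817) and CYCD3;3 (0.91 ± 0.17, adjusted p = 0.00137) rose in WT in the authors' deposited table, as did CYCD2;1 (0.35 ± 0.09, adjusted p = 0.0116). None of these was listed with paraquat in trm4b-1. CYCD1;1 (AT1G70210) went the other way, with a deposited -0.94 ± 0.18 in trm4b-1 (adjusted p = 0.00238) and -0.81 ± 0.18 in WT (adjusted p = 0.0049), the largest fall of any member that passed in trm4b-1. The D4, D5 and D6 cyclins, 4 genes, were listed in no table.

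Genes of mitosis and cytokinesis fell without exception among those that changed, 4 of 7 in each genotype. Falls among all tested genes were 4.33% in trm4b-1 and 9.01% in WT. KNOLLE (AT1G08560, TAIR10 chr1:2709632-2710912, minus strand), the syntaxin that fuses vesicles at the forming cell plate, had a deposited -0.59 ± 0.10 in trm4b-1 (adjusted p = 0.00142) and -0.51 ± 0.10 in WT (adjusted p = 0.00216). The Aurora kinase AUR1, which acts on the spindle and cell plate, had -0.56 ± 0.13 in trm4b-1 (adjusted p = 0.0111) and -0.40 ± 0.13 in WT (adjusted p = 0.0426) in the deposited tables. Its relative AUR2 was not listed in trm4b-1 and fell by 0.57 ± 0.16 in WT in the deposited table (adjusted p = 0.0231). AUR3, the more distant Aurora kinase, was listed nowhere. HINKEL, a kinesin of the phragmoplast, fell by 0.42 ± 0.11 in trm4b-1 in the deposited table (adjusted p = 0.0227) and had -0.32 ± 0.11 in WT (adjusted p = 0.0581). The CDC20 genes code for activators of the anaphase-promoting complex. CDC20.2 fell by 0.49 ± 0.14 in trm4b-1 (adjusted p = 0.0444) and had -0.39 ± 0.13 in WT (adjusted p = 0.0588), and CDC20.1 fell by 0.56 ± 0.16 in WT (adjusted p = 0.0203) in the deposited tables. Which CDC20 gene passed in which genotype is uncertain: the genes lie 894 bases apart on chromosome 4, and 31.4% of 50-base exon windows of CDC20.1 and 34% of those of CDC20.2 are identical between them, so reads could have been split.

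**Figure D3:**
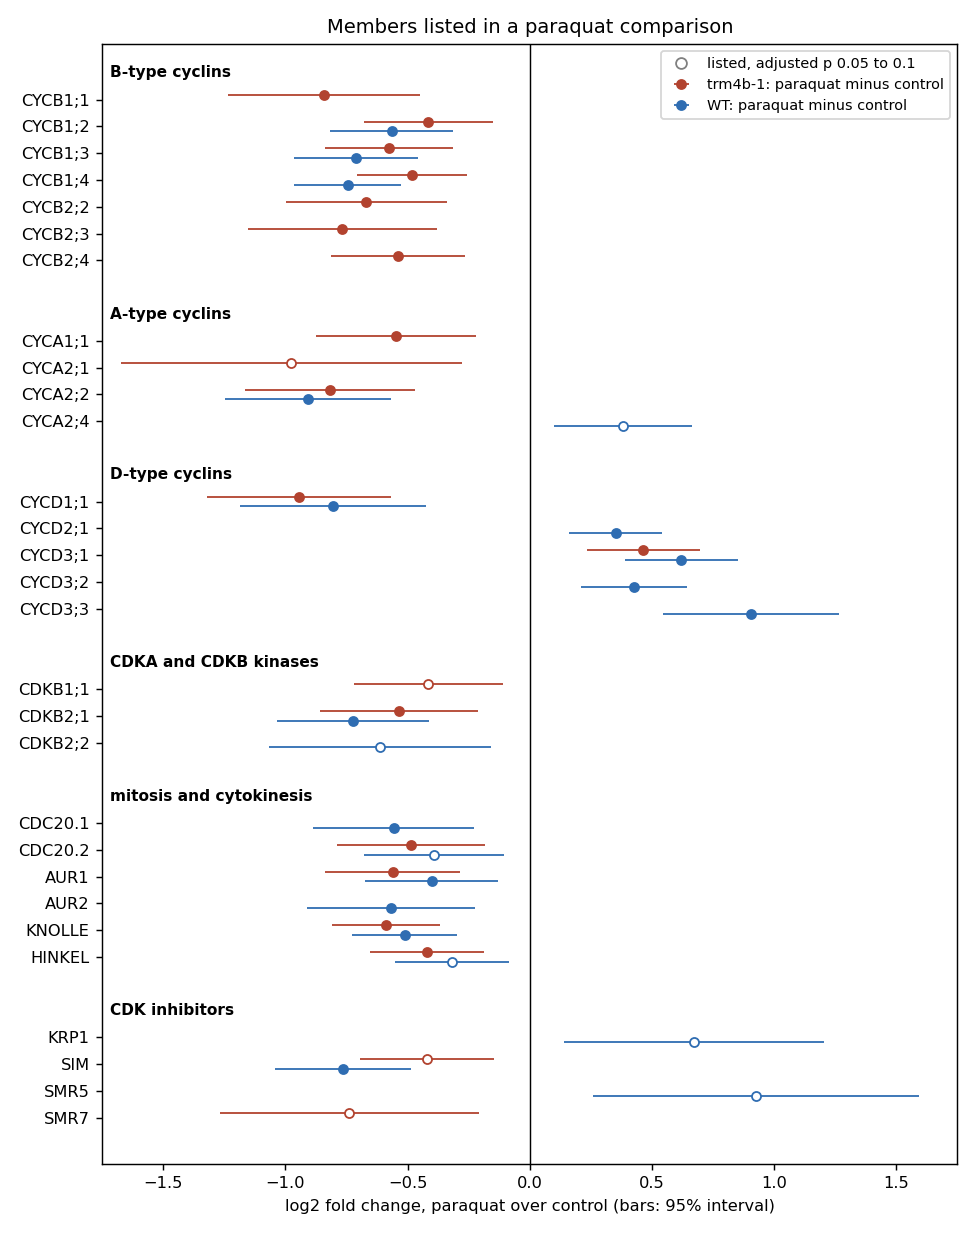
Deposited log2 fold change with paraquat over control (x axis) for each member listed in a paraquat comparison (y axis, by role), in trm4b-1 (red) and WT (blue), with 95% intervals and open circles where the adjusted p was 0.05 to 0.1. B-type cyclins and genes of mitosis and cytokinesis lie left of 0 in every listed value, and 4 D-type cyclins lie right of it.

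A further 21 genes of mitosis and cytokinesis outside the 52 also moved downwards where they passed, 6 in trm4b-1 and 4 in WT, with none higher. Of all tested genes, 4.33% were lower in trm4b-1 and 9.01% in WT. The list of 21 was chosen with earlier results of these data known. In the authors' deposited tables, MAD2, a spindle checkpoint protein, had -0.88 ± 0.12 in trm4b-1 (adjusted p = 0.000115) and -0.68 ± 0.11 in WT (adjusted p = 0.000424). The spindle kinesin ATK5 had a deposited -0.58 ± 0.10 in trm4b-1 (adjusted p = 0.00103) and -0.61 ± 0.10 in WT (adjusted p = 0.000337). The spindle assembly factor TPX2 had a deposited -0.42 ± 0.12 in trm4b-1 (adjusted p = 0.0442) and -0.37 ± 0.12 in WT (adjusted p = 0.0401). In trm4b-1 the deposited table also had the kinesin ATK1 at -0.57 ± 0.12 (adjusted p = 0.00598) and PLE, a microtubule bundler of the phragmoplast, at -0.51 ± 0.12 (adjusted p = 0.0117).

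The replication genes were not among the genes listed. MCM2 to MCM7, the sliding clamp genes PCNA1 and PCNA2, and TSO2, a small subunit of ribonucleotide reductase, are 9 genes, and none was listed in any of the 5 tables. The same held for E2FA and E2FB, the activating E2F factors. A gene that was not listed had an adjusted p of at least 0.1, which does not show that it did not change. Of 28 further replication genes, 1 rose in trm4b-1 and 5 rose in WT, and none fell. RNR2A, another small subunit of ribonucleotide reductase, rose in both, with a deposited 0.44 ± 0.12 in trm4b-1 (adjusted p = 0.0232) and 0.81 ± 0.12 in WT (adjusted p = 0.00025). The deposited WT table also had higher values for the DNA ligase LIG1 (0.29 ± 0.08, adjusted p = 0.018), the polymerase subunit POL2A (0.34 ± 0.11, adjusted p = 0.0369) and the replisome factor ETG1 (0.41 ± 0.13, adjusted p = 0.0391). These shares, 1 of 28 in trm4b-1 and 5 of 28 in WT, stand beside 4.72% and 7.99% of all genes higher in those comparisons. The list of 28 was chosen with earlier results of these data known.

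Of the 5 CDK inhibitors, none passed in trm4b-1 and 1 fell in WT, where 9.01% of all tested genes fell. SIM (AT5G04470), the SIAMESE inhibitor that promotes endoreduplication in trichomes, had a deposited -0.42 ± 0.13 in trm4b-1 (adjusted p = 0.0548) and -0.76 ± 0.13 in WT (adjusted p = 0.000694). SMR5 and SMR7 are inhibitors known to be induced by reactive oxygen species. In the deposited tables SMR5 was listed in WT at 0.93 ± 0.31 (adjusted p = 0.0548) and SMR7 in trm4b-1 at -0.74 ± 0.25 (adjusted p = 0.0831), and neither passed the threshold. KRP1 had 0.67 ± 0.25 in WT (adjusted p = 0.0832) in the deposited table, and KRP2 was listed nowhere. Of 25 further inhibitors and regulators, none passed in trm4b-1 and 2 rose in WT, which is near the share of all genes. They were SMR8 (AT1G10690, 0.60 ± 0.16, adjusted p = 0.0182) and KRP6 (0.39 ± 0.12, adjusted p = 0.0397), both CDK inhibitor genes and both deposited in the WT table.

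The interaction asks whether paraquat acted differently in trm4b-1 and in WT. The paraquat comparisons share no samples, and 9 of the 52 genes changed in both, 8 lower and 1 higher, each in the same direction. They are 56.25% of the 16 genes that changed in trm4b-1 and 60% of the 15 that changed in WT. Over all genes, 2203 changed in both, which is 72.5% of those changed in trm4b-1 and 38.6% of those changed in WT. A further 7 of the 52 passed in trm4b-1 without passing in WT, and 6 in WT without passing in trm4b-1. That does not make them specific to a genotype: none of the 52 was listed in the deposited interaction, where 107 genes passed (0.318% of those tested, limma) and 0.943% were listed. For the 12 members listed in both paraquat tables the difference, trm4b-1 minus WT, ran from -0.16 (AUR1) to 0.34 (SIM). No 95% interval excluded 0, and the outermost bounds were -0.67 and 0.74. The paraquat change was smaller in trm4b-1 for 7 of these genes and larger for 5. CYCB1;4 had a difference of 0.27 (95% interval -0.05 to 0.58) and SIM one of 0.34 (-0.05 to 0.74), and these intervals alone excluded 0 when 8 residual degrees of freedom were used in place of the recovered 15.3, at 0.03 to 0.50 and 0.01 to 0.67. At the median standard error of these differences, 0.177, a gene needed a difference of 0.72 to be listed in the interaction, so differences of the size seen here could not have been.

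For genes listed in 1 genotype, a limit can be set on the other, if its standard error was the same (over the 2887 genes listed in both comparisons the ratio of standard errors, trm4b-1 over WT, had a median of 1.00 and a 5th to 95th percentile range of 0.889 to 1.096). By this reckoning CYCB1;1 fell by 0.84 in trm4b-1, against a change of less than 0.47 in WT, and CYCB2;3 fell by 0.77 in trm4b-1, against less than 0.46 in WT. In the other direction, CYCD3;3 changed by less than 0.48 in trm4b-1, against a rise of 0.91 in WT. These are limits on estimates and not tests of the difference.

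**Figure D4:**
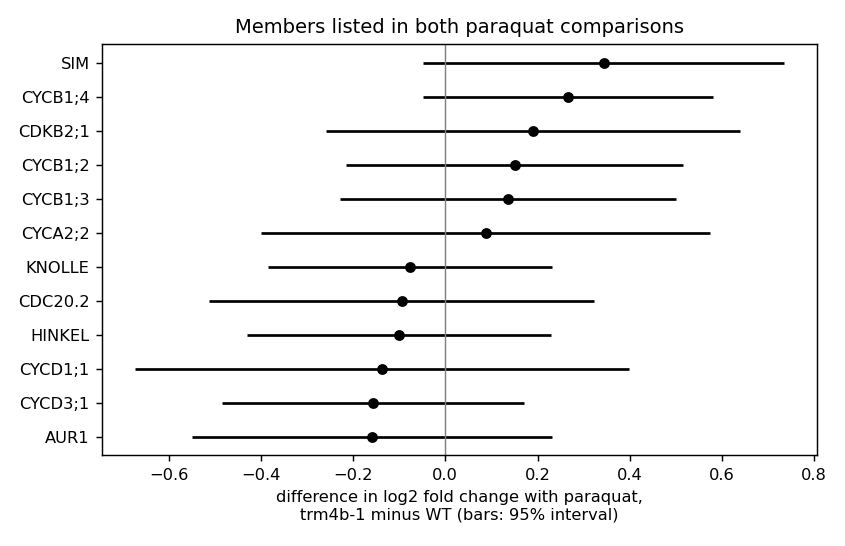
Difference in log2 fold change with paraquat, trm4b-1 minus WT (x axis), for the 12 members listed in both paraquat comparisons (y axis), with 95% intervals as bars. Every interval spans 0, and SIM (0.34) and CYCB1;4 (0.27) lie farthest to the right.

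On control medium, 1 of the 52 was higher in trm4b-1 than in WT and none was lower, against 0.839% of all genes higher and 1.19% lower (2.03% in either direction, and 3.65% listed), so the count was near the share of all genes. The gene was CYCD3;3 (AT3G50070, TAIR10 chr3:18565134-18566780, minus strand), which was higher in trm4b-1 by 0.69 ± 0.17 in the authors' deposited table (adjusted p = 0.0486), or 1.61-fold. This comparison and the WT paraquat comparison share the WT control samples. In the same deposited table SMR7 was listed at 0.92 ± 0.24 (adjusted p = 0.0664) and CYCB1;4 at -0.33 ± 0.10 (adjusted p = 0.0967), trm4b-1 minus WT. On paraquat, none of the 52 was listed between trm4b-1 and WT, in a deposited limma comparison with 48 changed genes in all (0.143%, and 0.223% listed). For CYCB1;4 the deposited values gave a rebuilt difference of -0.07 on paraquat.

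DNA damage response genes, which can stop the cycle at G2, were set beside the cyclins as a list of 15. This list was chosen with earlier results of these data known, so its counts only describe the genes on it. NAC044 and NAC085 are transcription factors that act in the G2 arrest, and GMI1 codes for an SMC-like protein induced by DNA breaks. On control medium, 4 of 15 were higher in trm4b-1 than in WT and none lower, against 0.839% of all tested genes higher and 1.19% lower. In the authors' deposited table GMI1 was at 3.07 ± 0.20 (adjusted p = 6.37e-07) and NAC085 at 4.56 ± 0.58 (adjusted p = 0.000802). NAC044 was at 2.54 ± 0.40 (adjusted p = 0.004) and RAD17 at 0.98 ± 0.18 (adjusted p = 0.0104) there. With paraquat, 3 of the 15 rose and 2 fell in WT, against 7.99% and 9.01% of all tested genes. In trm4b-1, 1 of the 15 fell with paraquat, against 4.33% of all tested genes. With paraquat in WT, GMI1 rose by 2.25 ± 0.21 (adjusted p = 2.88e-06), NAC044 by 2.59 ± 0.40 (adjusted p = 0.000318) and NAC085 by 3.07 ± 0.63 (adjusted p = 0.0028) in the deposited table. None of these was listed with paraquat in trm4b-1. Values rebuilt from the WT comparison and the interaction were -0.34 for GMI1, 0.31 for NAC044 and -1.12 for NAC085 there. On paraquat the rebuilt difference between trm4b-1 and WT was 0.48 for GMI1, 0.26 for NAC044 and 0.36 for NAC085. SOG1, the transcription factor upstream of this response, fell by 0.48 ± 0.09 in WT in the deposited table (adjusted p = 0.00194), and PARP2 had a deposited -0.65 ± 0.16 in trm4b-1 (adjusted p = 0.0151) and -0.63 ± 0.17 in WT (adjusted p = 0.014).

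**Figure D5:**
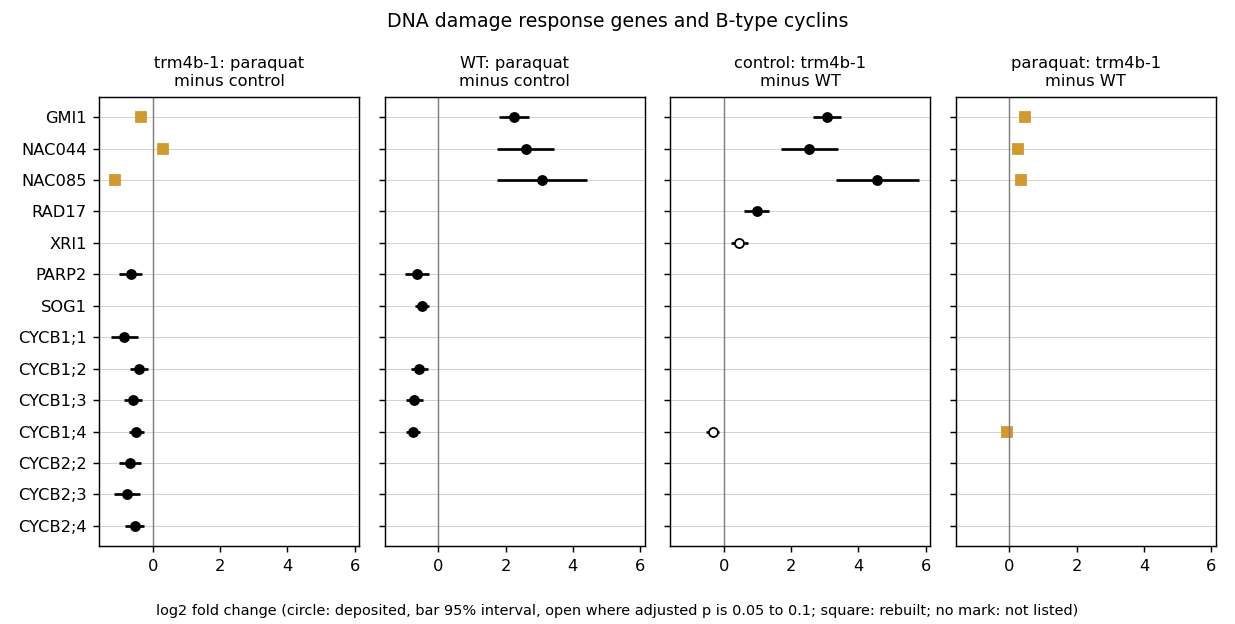
Log2 fold change (x axis) of DNA damage response genes and B-type cyclins (y axis) in 4 comparisons (panels), with circles for deposited values and 95% intervals, open where the adjusted p was 0.05 to 0.1, and squares for rebuilt values. GMI1, NAC044 and NAC085 lie between 2.25 and 4.56 in the WT paraquat panel and in the control genotype panel, which share the WT control samples. The B-type cyclins lie at or below 0 in every panel where they have a value.

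Root meristem regulators and markers of other cells were counted in the same tables. Their lists, too, were chosen with earlier results of these data known. Of 9 meristem regulators none was listed with paraquat in trm4b-1, and 2 rose in WT in the deposited table, PLT3 by 0.70 ± 0.15 (adjusted p = 0.00406) and PLT2 by 1.04 ± 0.28 (adjusted p = 0.0159), both PLETHORA factors that maintain the stem cell niche. With paraquat, 0 of 11 root hair markers changed in trm4b-1 and 10 of 11 fell in WT, with log2 fold changes of -0.34 to -2.18. Of 26 photosynthesis genes, which mark shoot tissue, 1 rose and 1 fell in trm4b-1, and 20 fell in WT, with log2 fold changes of -0.65 to -4.75. Of all tested genes, 7.99% rose and 9.01% fell with paraquat in WT, and 4.72% rose and 4.33% fell in trm4b-1. On control medium, 8 of 11 root hair markers and 3 of 26 photosynthesis genes were lower in trm4b-1 than in WT. Lower in this comparison were 1.19% of all tested genes, and it shares the WT control samples with the WT paraquat comparison. These markers moved with the WT paraquat comparison, in which the cyclin changes of WT were measured, and their part in the result was not tested.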

How the data were processed

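Per the labels' protocols, root RNA was depleted of ribosomal RNA and sequenced. Trimmomatic, TopHat and limma were used with the build TAIR10, per the submitters' processing notes, which give no versions. Read counting, strand, normalization and any filter were not given in the sources used here. Per the file headers, the authors deposited for each listed gene a log2 fold change (the base is limma's), its p-value raw and adjusted, and Storey's q-value.

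The tables imply 33602 tested genes (adjusted p times rank over p). In 96 genes the deposited interaction was the trm4b-1 paraquat contrast minus that of WT. This fixes the sign of the interaction relative to those contrasts. The direction of each contrast itself was taken from its label and could not be checked this way. The variance of the interaction gave 15.3 total degrees of freedom (8 residual). Standard errors are fold changes over the t value of p at these degrees of freedom, and rebuilt values are sums or differences of deposited ones. The recovery was tested on simulated data. The 52 genes, the 7 related lists and the rule for naming genes were chosen with earlier results of these data known. Named are the members that changed, all kinases, E2F factors and inhibitors, and up to 4 changed genes of each related list and comparison. The text gives no test over a list.

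Depth per sample is unknown. Promoters were read from TAIR10.1, where 98.6% of 38751 introns between deposited exons had splice signals (GT or GC start, AG end). Sequences are printed for 8 members, and the E2F match of 1 other member is not reported here. Sequences and starts are RefSeq's, coordinates of whole genes the deposited ones. The calculations used Python 3.11.15, pandas 2.3.3, numpy 2.4.6 and scipy 1.17.1.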

Additional observations from a re-analysis of the deposited data

Results flagged for a closer look

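Among the 135 genes set beside the cell cycle members, 4 passed in the deposited interaction (limma, adjusted p under 0.05), so their paraquat change differed between trm4b-1 and WT. Of all tested genes, 0.318% passed there and 0.943% were listed. The lists of these 135 genes were chosen with earlier results of these data known. GMI1, the SMC-like gene induced by DNA breaks, had a deposited interaction of -2.59 ± 0.24 on the log2 scale (adjusted p = 0.000102), trm4b-1 minus WT. NAC085, a transcription factor of the G2 arrest, had a deposited -4.20 ± 0.79 (adjusted p = 0.0328). NAC044 was listed in the same table at -2.28 ± 0.48 (adjusted p = 0.0587) and did not pass. Listed there without passing were also 4 root hair markers and 4 photosynthesis genes. The root hair genes PRP1 and LRX1, which code for cell wall proteins, had deposited interactions of 2.25 ± 0.38 (adjusted p = 0.016) and 1.27 ± 0.24 (adjusted p = 0.0323). The part of these genes in the cyclin values was not tested.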

How the results depend on the processing

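No paired analysis was possible because the deposited tables hold no values per sample, and leaving out single replicates could not be run for the same reason. Counts of the 52 genes depended on the threshold. At an adjusted p under 0.01, 6 genes were lower and 0 higher with paraquat in trm4b-1, and 0 were higher between the genotypes on control medium. Of all tested genes, 2.29% were lower and 2.86% higher with paraquat in trm4b-1 at that threshold, and 0.256% higher between the genotypes. With paraquat in WT, 8 of the 52 were lower and 3 higher at that threshold, against 5.63% and 4.64% of all tested genes. With an absolute log2 change of at least 1, or with Holm adjustment, 0 genes passed in either direction in either paraquat comparison and 0 between the genotypes on control medium. At the log2 limit of 1, 1.97% of all tested genes were higher and 1.22% lower in trm4b-1, and 2.72% and 2.81% in WT. Under Holm the shares were 0.937% and 0.399% in trm4b-1, and 1.01% and 0.923% in WT. Between the genotypes on control medium they were 0.339% and 0.31% at that limit, and 0.0923% and 0.0298% under Holm. With an absolute log2 change of at least 0.5, 0 genes were higher with paraquat in trm4b-1 and 2 in WT. The shares of all tested genes were 3.76% and 5.95%. At the same limit of 0.5, 11 genes were lower in trm4b-1 and 10 in WT, against 3.1% and 6.36% of all tested genes. At the listing limit of an adjusted p under 0.1, 7 genes were higher with paraquat in WT, and on control medium 2 were higher and 1 lower in trm4b-1 than in WT. Among all tested genes these shares were 10.3%, 1.57% and 2.08%. By the Storey q-value, 2 were higher in trm4b-1 on control medium, against 1.11% of all tested genes. The falls with paraquat counted by Storey q were 19 in trm4b-1, where the listing limit makes this a lower bound, and 14 in WT. Among all tested genes 5.97% fell by that measure in trm4b-1, under the same listing limit, and 10.6% in WT. Without the CDC20 and PCNA pairs, 14 fell in trm4b-1 and 10 in WT. On paraquat between the genotypes, and in the interaction, the count was 0 under each of these settings. Of the 32 calls of single genes, 15 were lost at an adjusted p under 0.01 and 8 at a log2 change of 0.5 or more. With 8 degrees of freedom the median standard error of the changed genes was 0.113 in trm4b-1 and 0.0909 in WT, against 0.137 and 0.129, and 2 of the 12 genotype differences had intervals that excluded 0, against 0. No member had both genotype contrasts listed, so the interaction could not be rebuilt from them. In the 250 bases before the start alone, 36.5% of members had an MSA core and 13.5% an E2F site. Among all promoters these shares were 20.6% and 1.41%. With the 50 bases after the start included, 42.3% of members had an MSA core and 13.5% an E2F site. The shares of all promoters were then 24.7% and 1.76%.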
